A study of Mus musculus with 2 samples.

Results

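The 7 genes described here are members of the mouse alpha-defensin family: Defa21, Defa22, Gm15293, Gm14850, Gm10104, Defa5 and Defa24. They were picked by symbol from the 28000 gene rows shared by 2 single-cell libraries, because their RNA was far higher in the TripleTg library than in the DoubleTg library. The difference between the libraries is therefore given as a description only. RefSeq names Gm15293, Gm14850 and Gm10104 as Defa41, Defa37 and Defa35. Another 22 rows of the same family were read beside them.

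Both libraries were single-cell suspensions of mouse prostate tumor tissue, with 1 library per genotype, so no difference between genotypes has a replicate check. DoubleTg (hHGFtg-hMETtg-PBCre, labelled prostatic adenocarcinoma) carried a ubiquitously expressed human HGF transgene and a human MET transgene in the H11 locus behind a stop cassette. Cre driven by the probasin promoter removes the cassette in prostatic epithelium. TripleTg (hHGFtg-hMETtg-Ctnnb1-PBCre, labelled prostatic carcinoma) carried the same alleles and 1 floxed Ctnnb1 allele, from which Cre removes exon 3 to give a stabilized β-catenin. Both genotypes thus share the HGF and MET transgenes and the Cre. The mice were on mixed backgrounds, and neither their age nor their number per library was given in the sources used here. The 3′ reads of Ctnnb1 lie outside the deleted exon and do not check the genotype.

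Alpha-defensins are small cationic antimicrobial peptides that are stored in granules. In the mouse they are known as cryptdins and are made chiefly by Paneth cells at the base of the small intestinal crypt, where the matrix metalloproteinase MMP7 cleaves them into their active form. Paneth cells depend on canonical Wnt signaling and on the transcription factor SOX9, and the TCF and LEF factors that act with β-catenin bind the core motif ATCAAAG. The Wnt target genes read beside the defensins were Axin2, Nkd1 and Notum, which encode feedback inhibitors of the pathway, and Lef1, which encodes one of its DNA-binding factors.

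The upstream sequences of the members are shown because the motif ATCAAAG recurs in them at a fixed distance. Each run is the last 180 bases before the first annotated base of the gene, 5′ to 3′ on the plus strand of chromosome 8, from the RefSeq promoters on GRCm38.p6, with ATCAAAG in capitals. The windows are chr8:21025365-21025544 for Defa21, chr8:21162097-21162276 for Defa22, chr8:21201381-21201560 for Gm15293, chr8:21064858-21065037 for Gm10104 and chr8:21565206-21565385 for Gm14850.
Defa21: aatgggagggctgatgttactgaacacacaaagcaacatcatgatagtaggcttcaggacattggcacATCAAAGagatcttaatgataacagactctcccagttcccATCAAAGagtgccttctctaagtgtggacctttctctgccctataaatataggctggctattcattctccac
Defa22: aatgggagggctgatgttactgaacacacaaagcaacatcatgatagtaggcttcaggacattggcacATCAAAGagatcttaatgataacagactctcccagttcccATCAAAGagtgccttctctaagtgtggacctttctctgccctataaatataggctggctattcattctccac
Gm15293: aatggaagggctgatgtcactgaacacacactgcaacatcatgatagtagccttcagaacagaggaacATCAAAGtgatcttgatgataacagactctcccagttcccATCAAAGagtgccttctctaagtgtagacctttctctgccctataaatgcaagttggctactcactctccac
Gm10104: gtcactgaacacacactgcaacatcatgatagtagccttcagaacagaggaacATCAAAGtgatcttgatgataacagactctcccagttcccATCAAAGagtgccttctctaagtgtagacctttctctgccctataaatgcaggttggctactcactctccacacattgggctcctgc
Gm14850: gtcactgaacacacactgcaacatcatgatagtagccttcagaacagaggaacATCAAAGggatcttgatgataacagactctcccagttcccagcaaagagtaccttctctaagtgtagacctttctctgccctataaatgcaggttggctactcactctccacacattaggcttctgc
The windows of Defa21 and Defa22 were identical. In Defa21, Defa22 and Gm15293 the motifs began at positions -112 and -72, counted with the last printed base as -1, and in Gm10104 at -127 and -87. In each of these 4 genes the motif starts lay 40 bases apart. Gm14850 held a single copy, at -127, although its 250 upstream bases were 98% identical to those of Gm10104. The RefSeq start of Gm15293 lies 43 bases after the GENCODE start, and its window ends before the earlier one. Promoters were matched for 5 of the 7 members, and Defa5 and Defa24 had no entry.

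ATCAAAG was searched on both strands, the reverse strand reading CTTTGAT. At least 1 copy was present in 1053 of 32851 mouse promoters (3.21%), with the 250 bases before the start searched in each, as in the family, and at least 2 copies in 27 (0.0822%). At least 1 copy was present in 12 of the 16 matched family promoters, 5 of them members, and at least 2 copies in 9, 4 of them members. TATAAA was present in 2494 of all promoters (7.59%) and in all 16 of the family. A match describes the letters only. Several of the 16 family promoters were identical over the 250 bases, among them Defa2 with Defa20, Defa23 with Defa-rs7 and Gm14850 with Gm21498. The 16 are thus not separate observations beside the other promoters. Outside the members, Gm15308, Defa20, Defa23, Defa2 and Defa-rs7 also held 2 copies at a spacing of 40 bases, and had 183049, 122608, 19, 0 and 0 UMIs in TripleTg epithelial-like cells. Of the family promoters with no copy, Gm14851 had 107 UMIs, AY761185 had 11, Gm7849 had 4 and Gm7861 had 0.

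The 7 genes lie within 709927 bases of chromosome 8 (GENCODE M21, GRCm38), all on the plus strand and each with 2 exons and a coding length of 279 bases. In order along the chromosome they are Defa21 (21025545 to 21026516), Gm10104 (21065038 to 21065996), Defa22 (21162277 to 21163249), Gm15293 (21201561 to 21202539), Defa5 (21297439 to 21298375), Gm14850 (21565386 to 21566349) and Defa24 (21734494 to 21735471). Family genes with few or no UMIs lie among them. How far their reads can be told from those of near copies was not tested, so a low count need not mean low expression. Defa23, with 19 UMIs in TripleTg epithelial-like cells, sits between Defa21 and Gm10104, and Defa-rs7, with 0, sits between Defa22 and Gm15293.

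The transcripts are near copies, so reads can be split among them, which limits how far single members can be told apart. Defa21 and Defa22 were 99.3% identical over their transcripts, and 54.7% and 54.8% of their 90-base windows occurred in no other gene. All 314 windows of Gm14850 also occurred in Gm21498, a family row with 1 UMI in TripleTg epithelial-like cells. Of Defa5 only 8.01% of the windows were its own, and most were shared with Gm15315, whose transcript was 98.7% identical. In the last 300 bases, nearest the counted 3′ end, 0.474% of the Defa5 windows were its own, so its UMIs can hardly be told from those of its near copies. There the share was 61.1% for Defa21 and Defa22, 69.7% for Gm10104 and 93.8% for Gm15293. Gm10104 (70.9%) and Gm15293 (81.8%) were better separated, and every window of Defa24 was its own. The transcripts span 376 to 419 bases and UMIs were counted at the 3′ end, so levels were not divided by length.

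After removal of cells with 200 or fewer genes, 7000 or more genes, or 15% or more mitochondrial UMIs, 10598 of 12072 DoubleTg cells and all 9492 TripleTg cells remained. Their median depths were 16761 and 20097 UMIs. From marker genes, 7003 DoubleTg and 6624 TripleTg cells were called epithelial-like (median 26850 and 25602 UMIs). The TripleTg cells split into 4853 luminal-like and 921 basal-like cells, 590 cells resembling seminal vesicle (seminal vesicle-like) and a further cluster of 260 epithelial cells. That cluster, number 7, was led by Krt73 and Tchh, genes known from the hair follicle sheath, and by Calm4, Cnfn, Crct1, Lce3f and Sprr1b. The latter are genes of cornified squamous epithelium. It was set apart by a short list of such cornification genes, outside the marker lists, and is called other epithelial-like. In TripleTg 1599 shallow and 150 mixed cells stayed unnamed, at a summed 1761 and 1391 CPM (UMIs per 1000000 UMIs) of the 7 genes, and in DoubleTg 1228 shallow cells at 0 CPM. The libraries shared 30 cell barcodes. The human MET transgene was read at 40.2 CPM in TripleTg and 430 CPM in DoubleTg epithelial-like cells.

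All 7 genes were read in both libraries, with 31074 or more UMIs in TripleTg epithelial-like cells for every member but Defa24. Their summed level was 3022 CPM in TripleTg (95% Poisson interval 3014 to 3029) and 0.575 CPM in DoubleTg (0.481 to 0.682). That is 616098 against 132 UMIs and a log2 ratio of 12.36, with a counting interval of 12.11 to 12.62. All 7 members were more than 4-fold higher in TripleTg, against 4.91% of the 9105 genes that reached 5 CPM in either library. Because the members were chosen for this difference, nothing is read from that count. All intervals here cover counting error only, since cells are not replicates.

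Defa22 was the highest member in TripleTg epithelial-like cells, at 993 CPM against 0.0261 CPM in DoubleTg (202410 and 6 UMIs). Defa21 followed at 809 and 0.0436 CPM (165022 and 10 UMIs). Given the windows they share, the order of these 2 genes is uncertain. Gm10104 reached 452 and 0.118 CPM, from 92069 and 27 UMIs. Gm15293 stood at 369 and 0.279 CPM, from 75288 and 64 UMIs. These 2 genes had most of the few UMIs found in DoubleTg. Gm14850 was read at 239 CPM against 0.0348 CPM, from 48762 and 8 UMIs. Defa5 was read at 152 and 0.0436 CPM, from 31074 and 10 UMIs. Defa24 was far below the others, at 7.22 and 0.0305 CPM, from 1473 and 7 UMIs. The log2 ratios ran from 7.89 for Defa24 (6.84 to 9.21) to 15.21 for Defa22 (14.09 to 16.66). The 7 genes together made up 0.302% of all UMIs of TripleTg epithelial-like cells, and the whole family 0.502%.

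In DoubleTg the few molecules were concentrated in 1 cell. Of 10598 cells, 27 held a UMI of any member, 133 UMIs in all, and 95 of these lay in 1 luminal-like cell with 10208 UMIs. That cell held 60 UMIs of Gm15293, 18 of Gm10104, 8 of Defa21, 5 of Gm14850 and 4 of Defa5, with 0 of Defa22 and Defa24. It held 65 UMIs of Epcam and 86 of Krt8, and 0 of Axin2, Nkd1, Notum, Lef1, Sox9 and hMETtg. The next cells held 6 and 3 UMIs. Without the cell with 95 UMIs the log2 ratio of the summed members was 14.19. A member UMI was found in 0.371% of DoubleTg epithelial-like cells (exact binomial interval 0.243 to 0.544), in 0 of 1030 immune-like cells, which allows a share of up to 0.358%, and in 0 of 1868 basal-like cells, which allows up to 0.197%.

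In TripleTg, 88.6% of epithelial-like cells held at least 1 member UMI. So did 75.5% of immune-like cells (median 9246 UMIs) and 64.2% of endothelial-like cells (median 6999 UMIs), which should lack these genes. To compare at equal depth, each cell was thinned to 5000 UMIs, which left 6348 epithelial-like cells and dropped 276 shallower ones. The share was then 61.1% in epithelial-like, 61.5% in smooth muscle-like (65 cells), 51.7% in immune-like, 48.8% in macrophage-like, 36.3% in fibroblast-like and 36.0% in endothelial-like cells. It was 68.1% in luminal-like and 37.3% in basal-like cells, and 26.2% in the seminal vesicle-like ones. The shares in basal-like and seminal vesicle-like cells lie below that in immune-like cells, and the epithelial-like share does not exceed that in smooth muscle-like cells. A single UMI does not separate a cell of the epithelium from the level outside it, so cells with 10 or more member UMIs at 5000 are also given. Groups of cells by the number of members detected, used further on, count a member from 1 UMI, so those with 1 to 3 members cannot be told apart from that level.

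That bound was reached by 82.2% of other epithelial-like, 28.7% of luminal-like and 5.65% of basal-like cells, and by 3.15% of the seminal vesicle-like ones. The bound was met by 4.62% of smooth muscle-like, 3.75% of immune-like, 0.971% of macrophage-like and 1.24% of endothelial-like cells. The immune-like value includes a shallow neutrophil-like cluster of 144 cells (median 2716 UMIs) at 2930 CPM, led by S100a8 and S100a9 but also by Cd79a and MHC class II genes, while macrophage-like cells stood at 238 CPM. Of the 53 cells of that cluster with 5000 UMIs, 14 met the bound (26.4%), close to the luminal-like share, as did 18.0% of the 133 in cluster 22, left unnamed for its mixed markers. Summed levels were 14515 CPM in other epithelial-like, 3094 in luminal-like cells, 1779 in basal-like cells and 157 in seminal vesicle-like cells. Endothelial-like cells stood at 218 CPM, fibroblast-like cells at 94.4 and smooth muscle-like cells at 780 CPM. How much of the signal outside the epithelium was free RNA or doublets was not tested.

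**Figure D1:**
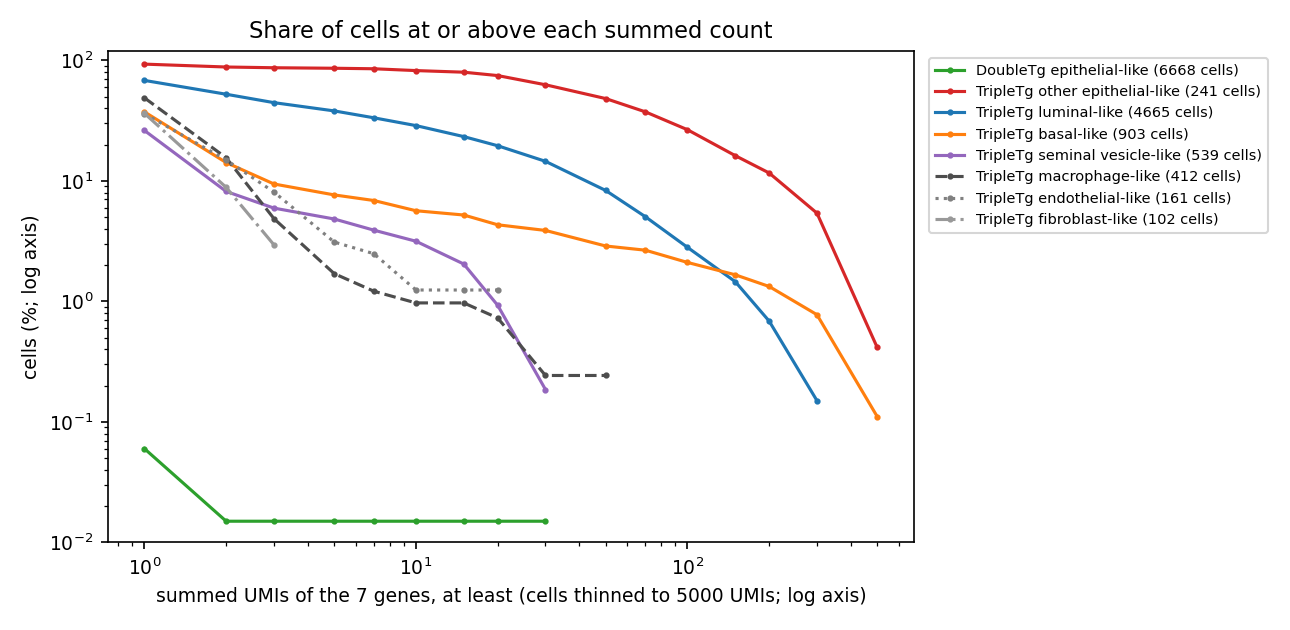
Share of cells (%, log axis) holding at least the given number of summed UMIs of the 7 genes (log axis). Each cell was thinned to 5000 UMIs, with 1 line per class drawn. In TripleTg no line is drawn for smooth muscle-like (4.62% at 10 UMIs), neutrophil-like (26.4%), dendritic-like, glial or Schwann-like or unnamed cells. At 10 UMIs, other epithelial-like (82.2%) and luminal-like (28.7%) cells of TripleTg lie above basal-like (5.65%) and macrophage-like (0.971%) cells, and the DoubleTg line starts at 0.0600%, which is 4 cells.

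Expression was strongly uneven between cells. Over the 6348 TripleTg epithelial-like cells at 5000 UMIs, the summed members had a median of 1 UMI, an upper quartile of 10, a 90th percentile of 41.3 and a maximum of 975. The highest 1% of cells held 21.1% of the member UMIs, the highest 5% held 52.7% and the highest 10% held 71.3%. At the other end, 38.9% of cells held none. In all, 1606 cells (25.3%) reached 10 UMIs and 214 reached 100.

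Clusters made without the family and without Axin2, Nkd1, Notum, Lef1 and Sox9 differed widely in summed level. Cluster 7 (14515 CPM) and luminal-like cluster 6 (10129 CPM) were the highest. They held 3.93% and 9.62% of epithelial-like cells but 19.9% and 33.4% of the member UMIs. Basal-like cluster 21 (5466 CPM), luminal-like clusters 4 (5049) and 5 (3068) and the cycling luminal-like cluster 0 (1676) followed. The other 8 clusters lay between 58.2 and 466 CPM, among them luminal-like cluster 13, with 17.5% of the cells and 2.15% of the member UMIs. Cluster 21, led by Mt4 and Jakmip2, differed in form from the rest of the high clusters, since its median cell held 0 member UMIs while 8.05% of its cells held 100 or more. In clusters 7, 6, 4 and 5 the median cell held 47, 30, 12 and 7 UMIs.

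**Figure D2:**
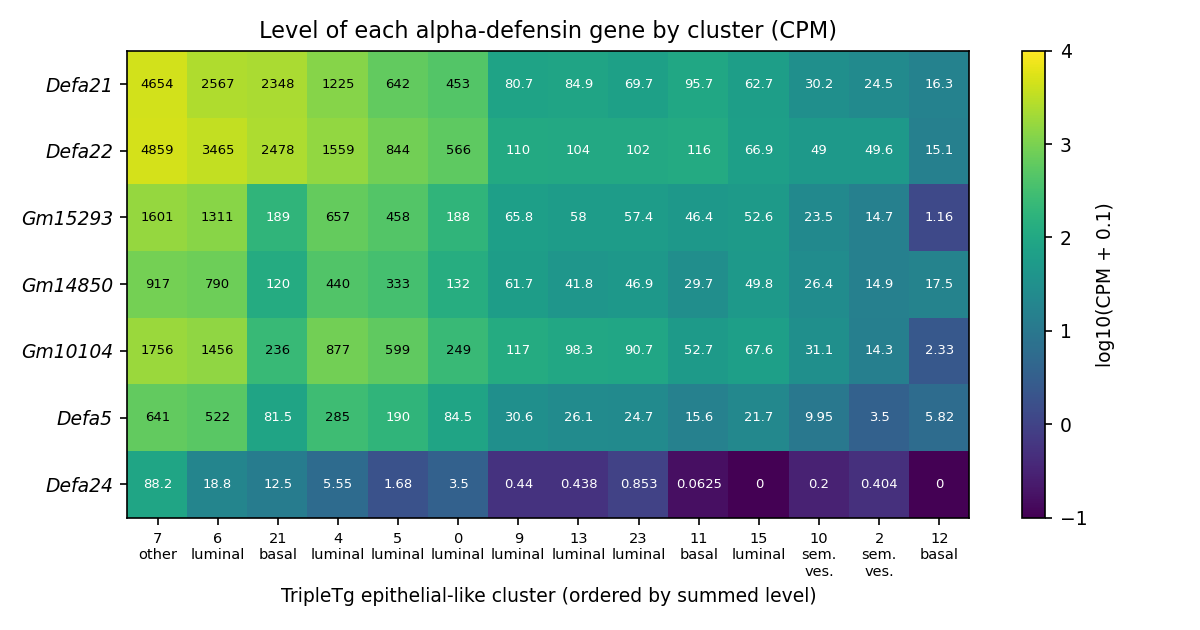
Level of each of the 7 genes (CPM, printed in each cell and coloured by log10(CPM + 0.1)) in the 14 TripleTg epithelial-like clusters, ordered by their summed level. Clusters 7 and 6 are the highest for all 7 genes, while cluster 21 is high for Defa21 (2348 CPM) and Defa22 (2478 CPM) but not for Gm15293 (189 CPM).

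Each of the 6 abundant members had the same order of levels over clusters 7, 6, 4, 5 and 0. Defa22 ran from 4859 CPM in cluster 7 to 15.1 in basal-like cluster 12, and Defa21 from 4654 to 16.3. Gm10104 stood at 1756 CPM in cluster 7, 1456 in cluster 6 and 877 in cluster 4. Gm15293 stood at 1601, 1311 and 657 CPM in the same clusters, Gm14850 at 917, 790 and 440, and Defa5 at 641, 522 and 285. Cluster 21 broke this pattern. There these 4 genes were at 236, 189, 120 and 81.5 CPM, all below their level in cluster 5, while Defa21 and Defa22 were above theirs. Defa24 was concentrated in cluster 7. Its level there was 88.2 CPM (82.0 to 94.8), against 3.54 in basal-like cells, and cluster 7 held 747 of its 1473 UMIs.

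The split of the member UMIs between the gene pair Defa21 and Defa22 and the other genes varied between clusters. The pair took 59.6% of member UMIs over all TripleTg epithelial-like cells. Its share was 88.3% in cluster 21 (88.0 to 88.6), 65.5% in cluster 7, 59.5% in cluster 6, 55.2% in cluster 4 and 48.4% in cluster 5. It was lowest in luminal-like clusters 9 (40.9%) and 15 (40.3%). Outside the epithelium the named classes lay between 44.8% in smooth muscle-like and 64.7% in dendritic-like cells, so none of them had the split of cluster 21. In cluster 21, 33 of the 41 cells with 50 or more member UMIs had a pair share of at least 80%, against 193 of 1685 such cells over the whole epithelium (11.5%). The median cell of these 1685 had a share of 52.6%, with a 10th percentile of 18.1% and a 90th percentile of 81.2%.

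Even the near-identical Defa21 and Defa22 were not used in a fixed proportion. In 1155 cells with 50 or more UMIs of the pair, Defa21 took 44.8% of them when pooled. The share per cell had a median of 43.7%, a 5th percentile of 11.1% and a 95th percentile of 83.1%. It was under 10% in 45 cells and over 90% in 34 cells. The variance between cells was 43.5 times that of binomial counting. For Gm10104 and Gm14850, also near copies, it was 5.32 times over 862 cells, with Gm10104 at a median of 67.2%, a 10th percentile of 52.5% and a 90th percentile of 78.8%. For Gm15293 with Gm10104 it was 10.3 times (963 cells) and for Gm15293 with Gm14850 8.005 times (778 cells). Reads lost or moved between near copies shift the mean of such a share. Their part in its spread between cells was not tested.

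**Figure D3:**
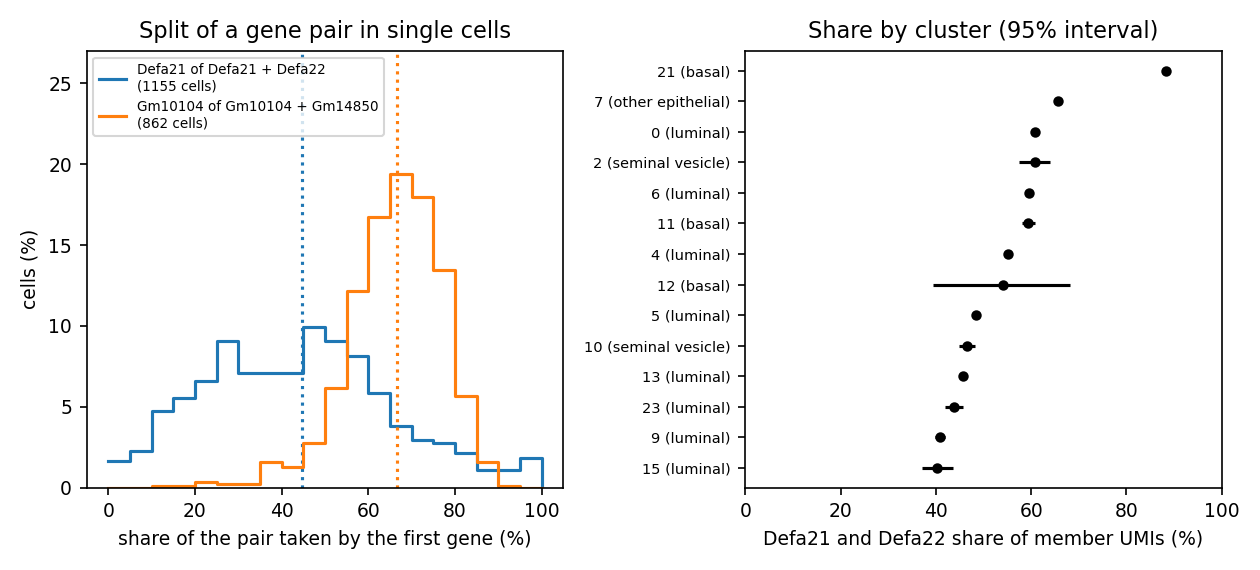
Left, the share of a gene pair's UMIs taken by its first gene (%) in single TripleTg epithelial-like cells with 50 or more UMIs of the pair, with the pooled share dotted, and right, the share of member UMIs from Defa21 and Defa22 (%) by cluster, with exact binomial 95% intervals. Defa21 of Defa21 and Defa22 spreads from under 10% to over 90% of the pair, wider than Gm10104 of Gm10104 and Gm14850, and basal-like cluster 21 lies apart at 88.3%.

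Despite the uneven splits, the paralogs were detected together. At 5000 UMIs, counting a gene from 1 UMI, Defa22 was found in 37.7% of the 6348 cells, Gm10104 in 36.7%, Defa21 in 35.9%, Gm15293 in 32.9%, Gm14850 in 32.4% and Defa5 in 24.7%. Defa24 was found in 82 cells (1.29%). Defa21 and Defa22 were both found in 26.6% of cells, against 13.5% if they were independent, a ratio of 1.97. Over all 21 pairs the ratio ran from 1.91 to 3.56. Of the 82 cells with Defa24, 92.7% also held Gm15293. Exactly 1 member was found in 19.0% of cells, 6 in 13.9% and 7 in 0.914%, with the values between running from 5.67% to 8.46%. The distribution thus had many cells at 0 or 1 member and a second peak at 6. Of the 1606 cells with 10 or more member UMIs, 875 held 6 members, 377 held 5, 58 held all 7 and 5 held a single one.

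Rank correlations over these cells are given as descriptions, since the cells come from 1 library. Among the 6 abundant members they ran from 0.61 (Defa21 with Gm14850) to 0.74 (Gm15293 with Gm10104), and Defa21 with Defa22 stood at 0.70. With Defa24 they were 0.14 to 0.19. The median over the 21 pairs was 0.65. Within single clusters the median over the 15 pairs of abundant members was 0.70 in cluster 7, 0.63 in cluster 4, 0.61 in cluster 6, 0.59 in cluster 5 and 0.53 in cluster 21. It was 0.25 in cluster 13, 0.21 in basal-like cluster 11 and 0.17 in seminal vesicle-like cluster 2. Their summed levels were 414, 356 and 122 CPM. Seminal vesicle-like cluster 10 stood at 0.41 with 170 CPM, and cluster 9 at 0.31 with 466 CPM. How the level bears on these values was not tested.

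**Figure D4:**
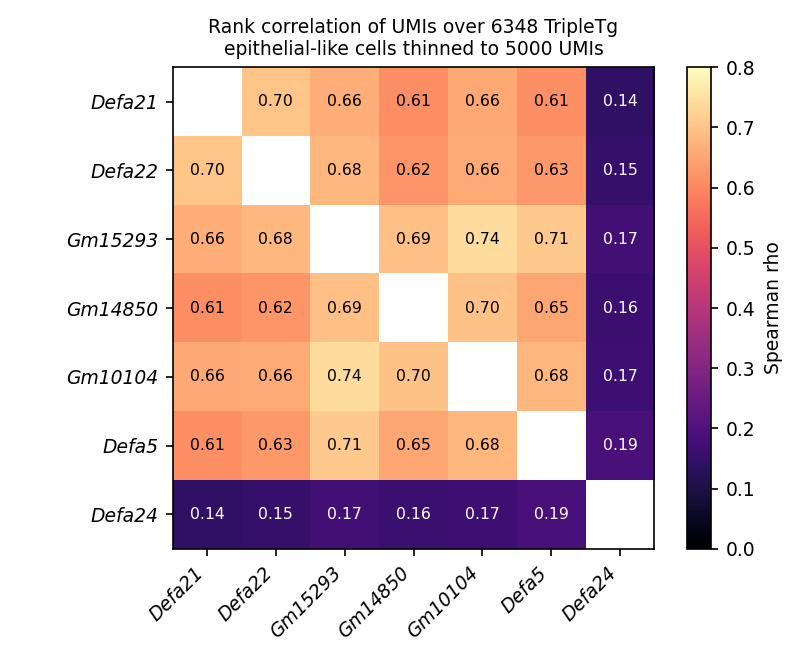
Spearman rank correlation of UMIs between the 7 genes over TripleTg epithelial-like cells thinned to 5000 UMIs (colour and printed value). The 6 abundant genes lie between 0.61 and 0.74 with each other, and Defa24, found in 1.29% of cells, lies between 0.14 and 0.19.

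Most of the listed Wnt target genes were higher in TripleTg epithelial-like cells. Axin2 was read at 73.0 CPM against 2.44 in DoubleTg (log2 ratio 4.90), Nkd1 at 55.8 against 1.16 (5.58), Notum at 38.8 against 1.04 (5.22) and Lef1 at 6.87 against 0.192 (5.16). Sox9 was lower, at 345 CPM against 542 (log2 ratio -0.65). Of the 12 Wnt target genes on the list used here, 8 were more than 4-fold higher and 0 were more than 4-fold lower, against 4.91% and 3.54% of all genes. All 8 were under 5 CPM in DoubleTg and entered the count through TripleTg alone. A limit met in either library favors such calls in every list counted here, and nothing is read from these counts. The 3 genes that were lower were Sp5, Myc and Ccnd1, with log2 ratios of -1.72, -0.99 and -0.53. The defensin genes were chosen on the same 2 libraries, so the counts are not evidence of a relation.

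Across TripleTg cells the relation differed by gene. Axin2 was higher where more members were detected. It went from 48.7 CPM (44.9 to 52.7) in the 2470 cells with none to 72.5 in the 2144 cells with 1 to 3 and 112 (105 to 119) in the 1734 cells with 4 to 7. Lef1 went from 3.48 to 7.18 and 12.9 CPM over the same cells. Nkd1 was at 52.6, 66.0 and 63.6 CPM, a log2 ratio of 0.27 between the outer groups (0.11 to 0.44), but at 60.8, 65.7 and 60.0 CPM in luminal-like cells alone. Notum was at 41.7, 43.2 and 39.2 CPM, with overlapping intervals. Of the other listed targets, Apcdd1 was higher in cells with 4 to 7 members than in cells with none (log2 ratio 2.32, 1.81 to 2.85). So were Rnf43 (0.57, 0.32 to 0.82) and Znrf3 (0.43, 0.16 to 0.70). The intervals of Tcf7, Lgr5 and Sp5 spanned 0. Ccnd1 (-1.36, -1.55 to -1.18) and Myc (-0.86, -1.06 to -0.67), which drive the cell cycle and growth, were lower. Rank correlations with the summed members were 0.19 for Axin2, 0.10 for Lef1, 0.05 for Nkd1 and 0.01 for Notum. These are weak, and in counts as sparse as these no finding rests on them. Axin2 was found in 26.6% of the cells and Lef1 in 3.42%.

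When the 4 Wnt genes were summed per cell, the share of cells with 10 or more member UMIs was 20.8% of the 3218 cells with no Wnt UMI. It was 26.1% of the 1714 with 1, 31.2% of the 775 with 2 and 38.5% of the 641 with 3 or more (34.7 to 42.4). Cells with no detected Wnt UMI at this depth thus still included 669 with 10 or more member UMIs. Sox9 ran the other way. The same share was 27.9% of the 2219 cells with no Sox9 UMI, 29.8% with 1, 23.9% with 2 or 3 and 14.5% of the 954 cells with 4 or more.

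**Figure D5:**
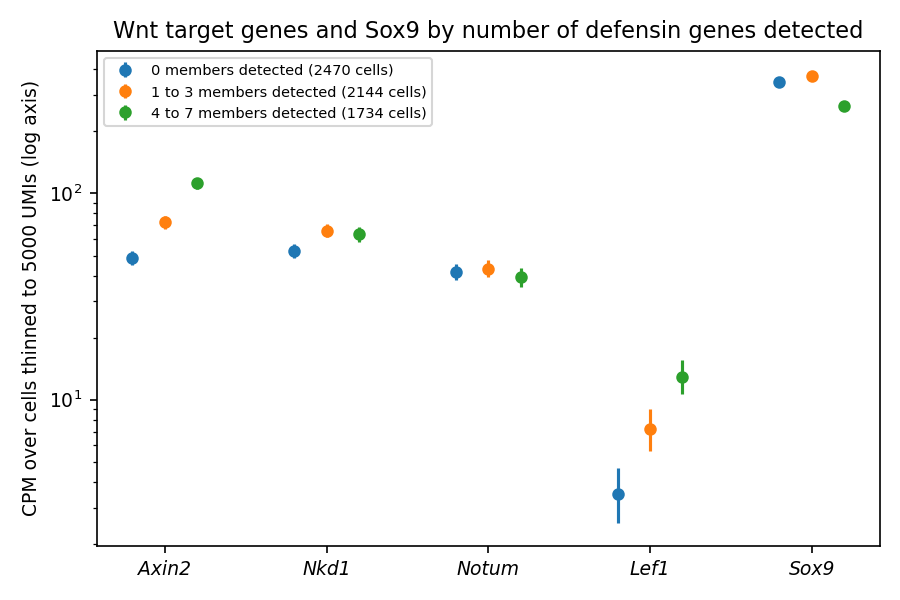
Levels of Axin2, Nkd1, Notum, Lef1 and Sox9 (CPM of UMIs at 5000 per cell) in TripleTg epithelial-like cells with 0, 1 to 3 and 4 to 7 of the 7 genes detected, with exact Poisson 95% intervals. Axin2 goes from 48.7 to 112 CPM and Lef1 from 3.48 to 12.9, Notum stays between 39.2 and 43.2, and Sox9 is lowest, at 266 CPM, in cells with 4 to 7.

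The same differences were read within classes and clusters, since clusters differ in both. In luminal-like cells alone Axin2 went from 52.5 to 75.6 and 114 CPM, and Sox9 from 480 to 430 and 274 CPM, with rank correlations of 0.17 and -0.21. Notum, whose intervals overlapped in the pooled cells, went from 23.5 (20.2 to 27.3) to 31.8 and 40.8 CPM (36.3 to 45.7) in luminal-like cells. Within single clusters, cells with 10 or more member UMIs were set against cells with none, where both kinds were numerous enough. This left clusters 0, 4, 5, 9, 13 and 21. Clusters 7 and 6, the highest in the members, were not compared, since only 7.05% and 1.47% of their cells held no member. For Axin2 the log2 ratio was 1.42 in cluster 0, 1.28 in cluster 9, 0.78 in cluster 13, 0.66 in cluster 5 and 0.61 in cluster 4, with every counting interval above 0. In cluster 21 it was 0.53, with an interval of -0.02 to 1.06. For Lef1 the log2 ratio was 2.44 in cluster 4, 1.18 in cluster 5 and 1.19 in cluster 21, each with an interval that spans 0. The other compared clusters held too few Lef1 UMIs for a ratio. The rank correlation of Axin2 within clusters had a median of 0.08 over 12 clusters, from -0.01 to 0.18, against 0.19 when pooled.

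Basal-like cluster 21 again stood apart. There Nkd1 was at 483 CPM in the 41 cells with 10 or more member UMIs and 194 CPM in the 125 cells with none, a log2 ratio of 1.32 (0.92 to 1.71). In clusters 0, 4, 5, 9 and 13 the same ratio was -0.05, -0.36, -0.28, 0.57 and -0.37, each with an interval that spans 0. Notum was lower in the same cells, at 161 against 266 CPM (log2 ratio -0.72, -1.31 to -0.18). Sox9 was higher, at 122 against 60.8 CPM, and hMETtg was higher, at 78.0 against 30.4 CPM. In luminal-like clusters 0 and 9 Notum was instead higher in the cells with 10 or more, with log2 ratios of 1.47 (0.46 to 2.52) and 1.53 (0.19 to 2.70). In luminal-like clusters 4, 5 and 13 the Notum ratio was 0.09, 0.05 and -0.36, each with an interval that spans 0. Basal-like cells with 4 to 7 members, 43 in all, also differed from those with none in keratins and depth. Krt8 was at 2474 against 754 CPM, Krt5 at 460 against 1378 CPM and the median depth at 36126 against 23846 UMIs. The doublet score had a rank correlation of 0.37 with the summed members in cluster 21 and also in cluster 9, and the part of doublets in these values was not tested. In luminal-like clusters 9, 13 and 4 Sox9 was lower in the cells with 10 or more member UMIs, with log2 ratios of -0.65, -0.53 and -0.34. In luminal-like clusters 0 and 5 the Sox9 ratio was -0.25 and -0.14, with intervals that span 0. The median rank correlation of Sox9 within clusters was 0.00, against -0.05 when pooled and -0.21 over luminal-like cells.

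Genes that mark the alleles and the cell classes were read in the same cells. Ctnnb1 was at 218, 233 and 252 CPM in cells with 0, 1 to 3 and 4 to 7 members, and hMETtg at 41.4, 32.9 and 30.6 CPM. Within classes hMETtg ran the other way, at 21.2, 21.9 and 27.3 CPM in luminal-like and 29.0, 36.1 and 51.2 CPM in basal-like cells, with overlapping intervals between the outer groups. Seminal vesicle-like cluster 10, at 170 CPM of the summed members, stood at 173 CPM of hMETtg. The luminal keratin Krt8 was at 4284, 4759 and 4717 CPM, and the basal keratin Krt5 at 338, 183 and 20.6 CPM. The doublet score had a rank correlation of 0.22 with the summed members, against 0.19 for Axin2. In luminal-like cells it was 0.14 against 0.17, and in clusters 6 and 7 it was -0.31 and -0.47. Its part in these relations was not tested.

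Most listed Paneth cell genes were at low levels. Of 20 listed Paneth cell genes 19 had a row and 7 reached 5 CPM in either library, of which 1 was more than 4-fold higher in TripleTg (Guca2a) and 1 lower (Spdef, a secretory lineage factor), against 4.91% and 3.54% of all genes. Lyz1, the Paneth cell lysozyme, was read in 109 UMIs in TripleTg (0.535 CPM) and 3 in DoubleTg. Mptx2, a Paneth cell pentraxin, had 0 in both. Mmp7, which processes cryptdins, was abundant in both, at 2381 CPM in TripleTg and 4094 in DoubleTg (log2 ratio -0.78). Within TripleTg it was at 2230 CPM in cells with no member and 2634 in cells with 4 to 7, but in luminal-like cells alone at 3229 and 2957 CPM. Clusters 7 and 6, the highest in the members, stood at 752 and 1815 CPM of Mmp7. Guca2a, which encodes the peptide guanylin, was lower in cells with 4 to 7 members, at 1.499 against 10.3 CPM in cells with none (log2 ratio -2.78, -3.73 to -1.95). Clca1, a goblet cell gene on the same list, was at 0.346 against 3.81 CPM (-3.46, -5.79 to -1.82). Itln1, the lectin intelectin, ran the other way, at 2.42 against 0.324 CPM (2.90, 1.34 to 4.91), and was at 0.966 CPM in TripleTg against 0.0827 in DoubleTg. Ephb3, a receptor that positions Paneth cells in the crypt, was at 38.9 against 31.2 CPM (0.32, 0.10 to 0.53).

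Intestinal epithelial genes gave a mixed picture. Of 15 listed, 6 reached 5 CPM, 2 more than 4-fold higher in TripleTg (Vil1 and Fabp1) and 2 lower (Tff3 and Reg3g), against 4.91% and 3.54% of all genes. Vil1, which encodes the microvillus protein villin, stood at 52.5 against 0.688 CPM, and within TripleTg at 97.2 CPM in cells with 4 to 7 members and 22.1 in cells with none (log2 ratio 2.14). The antimicrobial lectin Reg3g ran the other way within TripleTg, at 0.346 against 20.5 CPM. Cdx2, the intestinal master regulator, was at 0.0540 CPM. Of 15 proliferation genes 11 reached 5 CPM and 4 were more than 4-fold higher in TripleTg, against 4.91% of all genes. Within TripleTg, Mki67 was at 8.54 CPM in cells with 4 to 7 members and 9.96 in cells with none, with a log2 ratio of -0.22 (-0.66 to 0.20). Mcm6, Rrm2, Tyms and Mcm2, genes of DNA replication and nucleotide supply, were lower in the cells with 4 to 7 members, with log2 ratios of -1.04, -1.03, -0.90 and -0.73 and intervals below 0. All other genes on this list had intervals that span 0, among them the replication genes Pcna (-0.20) and Mcm5 (-0.40).

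Genes were then ranked by how closely they followed the summed members over the 6348 cells, among 6409 genes outside the family with a UMI in at least 5% of cells. The median rank correlation was -0.01 and 95% of genes lay between -0.14 and 0.18. The most alike were Prr9 (0.56), Cryba4 (0.52), S100a1 (0.45), Tmsb4x (0.43), Krt23 (0.42), S100a6 (0.42), Nupr1 (0.41), H3f3a (0.41), Fbp1 (0.40) and Lap3 (0.40). Axin2 ranked 142, Nkd1 987, Notum 2184 and Sox9 5307. The lowest were Mt1 (-0.41), Ifitm3 (-0.39), Ftl1 (-0.39), B2m (-0.32) and Mt2 (-0.29).

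Cryba4, a lens crystallin gene, went from 22.3 to 113 and 440 CPM in cells with 0, 1 to 3 and 4 to 7 members. Its level in DoubleTg epithelial-like cells was 0.192 CPM, against 183 in TripleTg. Prr9, a proline-rich protein gene, went from 1327 to 2452 and 8359 CPM. The metallothionein gene Mt1 went from 1179 to 842 and 258 CPM, and B2m, the light chain of MHC class I, from 997 to 574 and 208 CPM. Within clusters the correlations were smaller. The medians were 0.18 for Cryba4, 0.16 for S100a1 and 0.17 for Fbp1, each above 0 in 12 of 12 clusters, and -0.13 for Mt1, below 0 in 12 of 12. The other 7 of the 10 leading genes were each below 0 in at least 1 cluster. Prr9 (median 0.15), Tmsb4x (0.12) and Lap3 (0.14) were below 0 in 2 clusters and S100a6 (0.18) in 3, down to -0.34.

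Over the levels of 22 TripleTg clusters of all cell types, among 8284 genes, the most alike by Pearson correlation were Kcnmb2 (0.98), Tesc (0.97), Tnni1 (0.97), Il1f6 (0.96) and Mmp20 (0.95). Axin2 stood at 0.72 (rank 261), Lef1 at 0.66, Notum at 0.65, Nkd1 at 0.63 and Sox9 at 0.26. The clusters share 1 library, and many of these genes also took part in making the clusters.

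The 7 genes were not the whole of the family read in TripleTg, where they held 60.2% of the family UMIs. Of the 22 other rows, 6 reached 5 CPM, and all 6 were more than 4-fold higher in TripleTg, against 4.91% of all genes. None reached 5 CPM in DoubleTg, so all 6 passed that limit through TripleTg alone and nothing is read from the count. Gm15308 (898 CPM, log2 ratio 9.63), Defa20 (601 CPM, 9.18) and Gm21002 (315 CPM, 8.68) were above several of the 7 in level. Gm15315 (132 CPM), Gm15284 (43.3 CPM) and Defa3 (5.06 CPM) were lower. Relative to Defa21 and Defa22, these genes too differed between clusters. Gm15308 had 0.252 UMIs per UMI of the pair in luminal-like cluster 4, 0.869 in basal-like cluster 21 and 1.11 in luminal-like cluster 13, and Defa20 had 0.159, 0.652 and 0.622. Gm15315 had 0.0965, 0.0198 and 0.117. Beside the pair, cluster 21 was thus low in Gm15315, as in Gm15293, Gm14850, Gm10104 and Defa5.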

How the data were processed

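Per the labels and methods, the authors made single-cell 3′ libraries with 10x Genomics chemistry and counted reads with Cell Ranger 6.0.2 on mm10 with the human HGF and MET transgenes added. A file header of DoubleTg names a later Cell Ranger release, and the TripleTg matrix arrived already filtered. The deposited values are raw UMI counts per gene and cell, not normalized. How reads that match several genes were treated is not given in the sources used here. The deposited gene and cell names were used as given, and no authors' comparison table was used.

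Cells with more than 200 and fewer than 7000 genes and under 15% mitochondrial UMIs were kept. This left more DoubleTg cells than the study states. Clusters were made separately per library (scanpy 1.11.5, leidenalg 0.10.2, 2000 variable genes, 20 components, 15 neighbours, resolution 1), leaving out the alpha-defensin family, Axin2, Nkd1, Notum, Lef1 and Sox9. Clusters were named from marker lists and a short added list of cornification genes, with naming thresholds revised after the clusters were seen. Values compared across cells were taken after thinning each cell to 5000 UMIs. The level of a class is its summed counts divided by its total UMIs. With 1 library per genotype no test across genotypes was made. Poisson, Clopper-Pearson and conditional binomial 95% intervals (scipy 1.17.1) cover counting error only. A ratio of 4-fold with at least 5 CPM in either library was used to count genes. The ratio and likeness steps were tested on simulated data. Doublets were limited by the gene cap alone, because Scrublet marked 2.51% of DoubleTg and 0% of TripleTg cells and so did not work in TripleTg. Library scaling was also tried with TMM (edgeR 4.0.16).

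The members, lists and comparisons were chosen with earlier results of these data known. Named genes were the 7 members, the other family rows, Axin2, Nkd1, Notum, Lef1, Sox9, hMETtg, listed Wnt target, Paneth cell, intestinal, proliferation and beta-defensin genes, and the genes most and least like the summed members.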

Additional observations from a re-analysis of the deposited data

How the results depend on the processing

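With 1 library per genotype every interval covers counting error only, and genotype, animal and library cannot be told apart. No paired analysis was possible because each genotype has 1 library. UMIs of the members in cells outside the epithelium, whose source was not tested, limit what 1 UMI in a TripleTg cell shows, and reads of near copies limit single members. The share of DoubleTg epithelial-like cells with a member UMI (0.371%) was 0.114% at 2 or more UMIs, 0.0600% at 5000 UMIs per cell and 0.0584% at 2000. In TripleTg (88.6%) the same settings gave 72.8%, 61.1% and 48.1%, luminal-like cells alone 90.6%, and unnamed clusters added 85.4%. The TripleTg level (3022 CPM) was 3094 in luminal-like cells, 2941 with unnamed clusters and 2902 in all deposited cells with 3 epithelial markers and no Ptprc. Leaving out the 5% of cells with the highest doublet scores, a setting added after the data were seen, gave 3061 CPM in TripleTg, 0.168 CPM in DoubleTg (0.575 otherwise) and a log2 ratio of 14.15 (12.36 otherwise). Leaving out the DoubleTg cell with the most member UMIs, also added later, gave 14.19, thinning to 5000 UMIs 11.06 and TMM scaling 12.39. The median pair correlation (0.65) was 0.55 at 2000 UMIs, 0.68 at 10000, 0.42 within clusters and 0.70 by Pearson on log2(UMIs + 1). At 2000 UMIs the correlation with the summed members was 0.12 for Axin2, 0.014 for Nkd1 and 0.069 for Lef1. At 10000 UMIs it was 0.24 for Axin2, 0.080 for Nkd1, 0.040 for Notum and 0.14 for Lef1. Within clusters it was 0.075 for Axin2, 0.017 for Nkd1, 0.043 for Lef1 and 0.00040 for Sox9, which turned its sign. Within clusters made with all variable genes it was 0.068 for Axin2, 0.025 for Nkd1, 0.029 for Lef1 and 0.0051 for Sox9, again with its sign turned. In luminal-like cells it turned to -0.0041 for Nkd1 and was 0.071 for Notum and -0.21 for Sox9. By Pearson it turned to -0.0021 for Notum and was -0.087 for Sox9. The cause of these changes was not tested. Of the 10 genes most like the members, 7 were shared with the list at 10000 UMIs. A detection limit of 20% of cells could not test this, since all 10 exceed it. The share of genes called more than 4-fold higher was 6.82% at 1 CPM and 4.96% with TMM scaling.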

Other observations

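Some family rows were not low in DoubleTg. AY761184 had 1020 UMIs in DoubleTg and 42 in TripleTg epithelial-like cells, a log2 ratio of -4.43 (-4.91 to -3.99). These are 4.44 and 0.206 CPM, both under the limit of 5 CPM. Luminal-like clusters 15, 11 and 12 of DoubleTg held 407, 262 and 209 of its UMIs, and 24.7% of the cells of cluster 11 had at least 1. Gm15284 had 243 UMIs (50.1 CPM) in 1 smooth muscle-like cluster of DoubleTg, 78.1% of its UMIs in that library, with a UMI in 10.2% of that cluster's cells. In DoubleTg epithelial-like cells it stood at 0.270 CPM.

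Beta-defensin genes encode antimicrobial peptides of many epithelia including the male reproductive tract. Of 42 rows 5 reached 5 CPM in either library, and 4 were more than 4-fold lower in TripleTg, against 3.54% of all genes. Defb2 and Defb42 met that limit through DoubleTg alone, so nothing is read from the count. Defb50 was at 50.6 CPM in TripleTg and 10902 in DoubleTg epithelial-like cells (log2 ratio -7.75). The log2 ratio was -4.76 for Defb2, -3.13 for Defb1 and -2.71 for Defb42. Defb6 was higher in TripleTg, at 7.92 against 5.69 CPM (log2 ratio 0.48, 0.37 to 0.58). With 1 library per genotype these differences have no replicate check.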
